A study of Mus musculus with 4 samples.

Results

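The genes described here are those of macroautophagy in mouse oocytes. They were chosen by symbol, with earlier results of these data known. The rule took every gene named *Atg* followed by a number, together with *Map1lc3a*, *Map1lc3b*, *Gabarap*, *Gabarapl1*, *Gabarapl2*, *Ulk1*, *Ulk2*, *Becn1*, *Rb1cc1*, *Wipi1*, *Wipi2*, *Optn*, *Tax1bp1*, *Nbr1* and *Calcoco1*. The rule found 34 of the 21957 genes in the table. Of these, 28 reached 1 FPKM (fragments per kilobase of transcript, scaled to the mapped fragments of the library) in at least 1 library and 6 did not.

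Oocytes came from female B6D2F1 (C57BL/6 x DBA) mice of 6 to 8 weeks that had received PMSG, a gonadotropin that stimulates follicles to grow. They were freed of cumulus cells and kept in M16 medium. The GV library holds untreated oocytes arrested with an intact germinal vesicle, taken at 0 h of culture. The MII library holds untreated oocytes after 12 h of culture, kept only if they had extruded a polar body, and the label of this sample calls them embryos. The TubA-10 and TubA-20 libraries hold oocytes cultured for 12 h with 10 or 20 μM tubastatin A (TubA), a small molecule made to inhibit the cytoplasmic deacetylase HDAC6. These doses come from the sample titles. The field for treatment conflicts with them, as it has 20 μM for the TubA-10 sample and 11 μM for the TubA-20 sample. The labels do not give the meiotic stage of the TubA oocytes. The study describes timely breakdown of the germinal vesicle under TubA, with an impaired passage from meiosis I to meiosis II. The drug and the stage reached therefore cannot be told apart.

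Each library was made from a pool of oocytes and each condition had 1 library, so the spread between replicates is not known and no p-value is given. Changes are log2 ratios of FPKM + 1, a scale that understates the change of genes with few FPKM. A gene is said to have risen or fallen only where this ratio passed 2-fold, that is 1 or −1. Messages were captured by their poly(A) tails. Fewer messages and shorter tails, or fewer cells and less RNA per cell, therefore cannot be told apart.

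Macroautophagy encloses cytoplasm in a double membrane, the autophagosome, which fuses with the lysosome. The ULK1 kinase complex starts the process, a lipid kinase complex around Beclin 1 marks the membrane, and ATG9 and ATG2 supply lipid to it. A pair of ubiquitin-like systems then attaches proteins of the LC3 and GABARAP family to the membrane, where receptors bring in cargo. In the fully grown oocyte little transcription occurs, so maturation proceeds on stored messages that are translated, given longer tails or degraded on a schedule. A uridine-rich sequence in the 3′ untranslated region (UTR), the cytoplasmic polyadenylation element, takes part in that schedule through the protein CPEB1.

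The libraries were close in total FPKM, from 568331 to 627340, and had between 9773 genes (TubA-20) and 10324 genes (GV) at 1 FPKM or more. Judged from the smallest FPKM steps, TubA-10 and MII were an estimated 1.70 and 1.62 times as deep as GV, and TubA-20 0.896 times as deep, so low values are firmest in TubA-10 and MII. The read totals given by the study also put TubA-10 and MII above the other libraries. They differ from the estimate in having TubA-20 above GV and MII slightly above TubA-10. The table holds no counts, so no counting interval can be given. Against GV, the median of the 9193 genes that reached 1 FPKM in all libraries stood at 0.14 log2 in TubA-10, 0.19 in TubA-20 and 0.13 in MII, and the changes below can be read against these shifts. All 14 oocyte markers were at 1 FPKM or more. Of 15 cumulus and granulosa cell markers, 6 reached 1 FPKM. *Foxl2*, the defining factor of these cells, was at 0 in all libraries, and the summed FPKM of the list was 19.6 in GV, 11.3 in TubA-10, 18.4 in TubA-20 and 15.0 in MII. Markers of the list went either way, with the inhibin subunit gene *Inha* at 7.50 FPKM in GV and 0.314 or less elsewhere, and the aromatase gene *Cyp19a1* at 6.14 FPKM in GV and 7.42 to 10.3 elsewhere. The part of such cells in the results was not tested. Of 7 blood cell markers, the 4 hemoglobin genes were at 0 and 1 gene reached 1 FPKM. This was *Cd68*, at 1.72 FPKM in GV, 1.63 in TubA-10, 1.73 in TubA-20 and 2.26 in MII.

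The autophagy genes were ordinary in level for oocyte messages. Their median was 14.7 FPKM in GV, 14.0 in TubA-10, 11.4 in TubA-20 and 12.3 in MII, where all genes with at least 1 FPKM in 1 library had medians of 10.6, 10.2, 9.03 and 9.86. *Atg5* and *Tax1bp1* had the highest levels in every library, followed in GV by *Atg101* at 114 FPKM. Together *Atg5* and *Tax1bp1* made up 35.7% of the summed FPKM of all 34 genes in GV, 49.96% in TubA-10, 57.5% in TubA-20 and 54.8% in MII. The sum itself went from 874 FPKM in GV to 1143 in TubA-10, 1308 in TubA-20 and 1198 in MII. The median of the 28 genes that reached 1 FPKM went down. The 28 genes split into opposite patterns, since GV had the highest value for 12, TubA-20 for 10, MII for 5 and TubA-10 for 1. Over all genes tested the highest value was in GV for 37.8% and in TubA-20 for 37.5%, beside 42.9% and 35.7% of the autophagy genes.

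**Figure D1:**
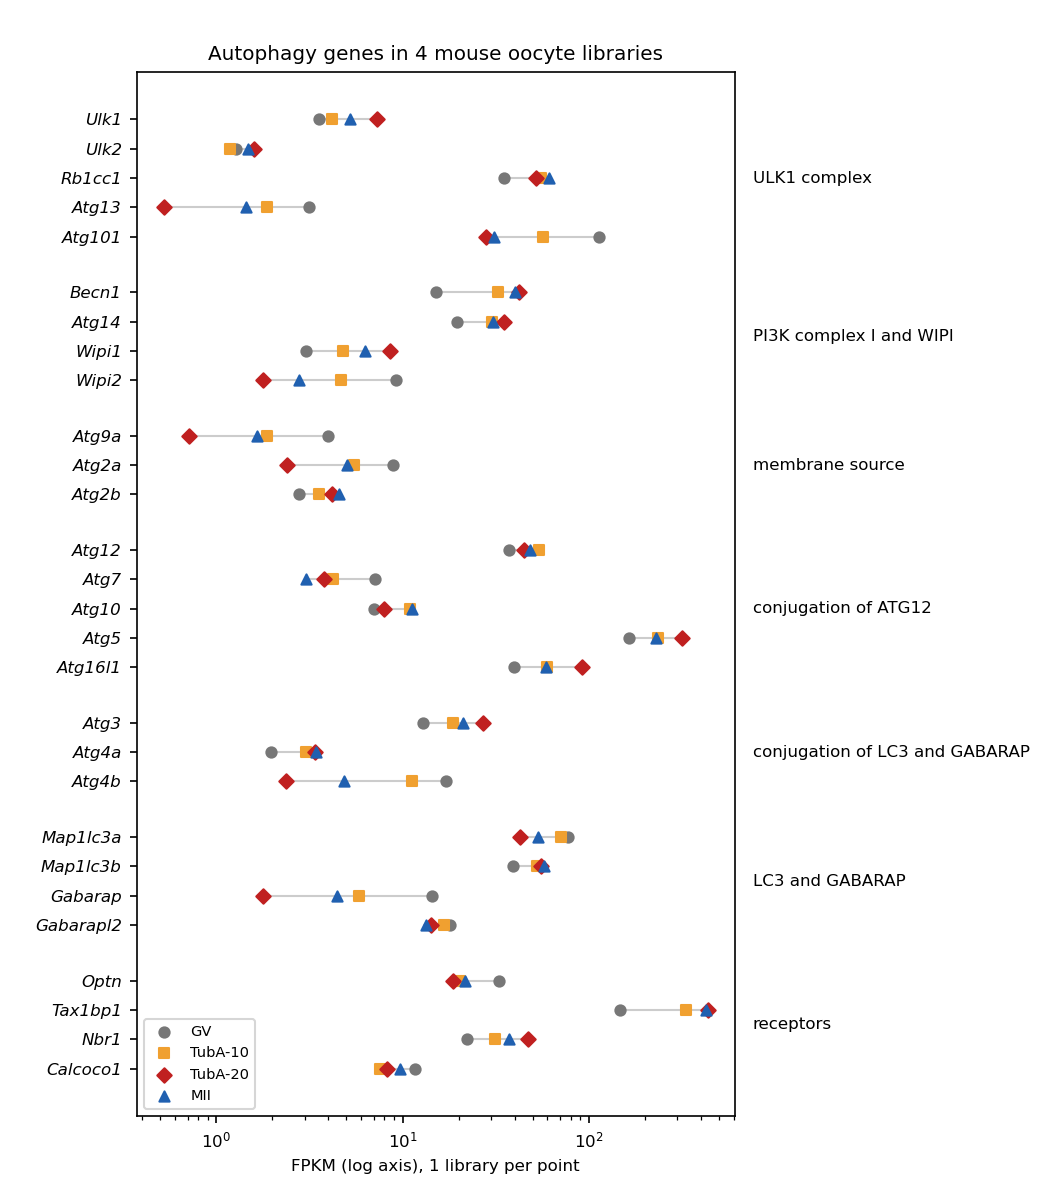
FPKM on a log axis of the 28 autophagy genes that reached 1 FPKM, 1 point per library (grey circle GV, orange square TubA-10, red diamond TubA-20, blue triangle MII), grouped by role, with a grey line from the lowest to the highest value. *Atg5* and *Tax1bp1* lie to the far right, and the genes with the widest spread (*Gabarap*, *Atg4b*, *Atg13*) run from GV at the high end to TubA-20 at the low end.

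Several of the genes whose messages rose or fell carry the hexamer TTTTAT or the heptamer TTTTAAT, both forms of the cytoplasmic polyadenylation element in DNA letters, in the 3′ UTR of their principal transcript. The sense-strand windows below are shown because they hold the site nearest the transcript end, in capitals, for the 6 genes that rose in TubA-20 and for the only 2 genes with such a site that fell there. They were read from GENCODE M21 transcripts and lie on GRCm38 at chr11:101286513-101286542 (*Becn1*, minus strand), chr6:52766638-52766667 (*Tax1bp1*, plus), chr11:101581761-101581790 (*Nbr1*, plus), chr1:87792338-87792367 (*Atg16l1*, plus), chr16:45188377-45188406 (*Atg3*, plus), chr11:109573552-109573581 (*Wipi1*, minus), chr5:142667187-142667216 (*Wipi2*, plus) and chr2:91675608-91675637 (*Atg13*, minus).
Becn1: gatttttatttaTTTTATgtgaacacacca
Tax1bp1: atatttagataaTTTTATgataacatttta
Nbr1: caacactaaagaTTTTATtcatgtttgaga
Atg16l1: ccagggcacatcTTTTATttatttaattat
Atg3: ttggttttgtttTTTTATttgtttttaacc
Wipi1: atgtaaccagaaTTTTATattaaaaagggc
Wipi2: actctttaatttTTTTAATctttttttttc
Atg13: agaaatcagataTTTTATagaagtatgttt
The site ended 73 bases from the transcript end in *Atg16l1*, 125 in *Tax1bp1*, 144 in *Atg3*, 173 in *Nbr1*, 233 in *Wipi1*, 282 in *Wipi2*, 573 in *Becn1* and 1002 in *Atg13*. A match to these letters describes the transcript and does not show that it is used.

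The genes of the ULK1 complex did not move together. *Atg101* (chr15:101284272-101290945), a small subunit that stabilises ATG13 in the complex, was at 114 FPKM in GV, 56.7 in TubA-10, 28.0 in TubA-20 and 31.1 in MII. It fell in MII (−1.84 log2) and TubA-20 (−1.99), and its value of −0.996 in TubA-10 stopped just short of 2-fold. *Atg13* (chr2:91674618-91710576), the regulatory subunit that links the kinase to its scaffold, was at 3.16, 1.86, 0.521 and 1.44 FPKM in GV, TubA-10, TubA-20 and MII, and fell by 1.45 log2 in TubA-20. Both were highest in GV and lowest in TubA-20. The scaffold gene *Rb1cc1*, which encodes FIP200, was lowest in GV, at 35.2 FPKM against 55.7, 51.8 and 61.4 in TubA-10, TubA-20 and MII, with changes of 0.54 to 0.78 log2 against GV. The kinase gene *Ulk1* was at 3.55 FPKM in GV, 4.19 in TubA-10, 7.31 in TubA-20 and 5.23 in MII, and its change in TubA-20 was 0.87 log2. *Ulk2*, its paralogue, stayed between 1.18 and 1.60 FPKM in the 4 libraries. Neither kinase gene passed 2-fold on this scale, and with a pseudocount of 0.1 *Ulk1* did so in TubA-20 (1.02).

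Among the genes that mark the membrane with phosphatidylinositol 3-phosphate and read that mark, 1 rose in every comparison with GV. *Becn1* (chr11:101285952-101302286), the gene of Beclin 1, was at 15.1 FPKM in GV, 32.4 in TubA-10, 42.4 in TubA-20 and 40.4 in MII. Against GV it rose by 1.05, 1.43 and 1.36 log2 in TubA-10, TubA-20 and MII, and GV was the lowest of the 4 libraries. On the opposite strand, 45.7% of the 50-base stretches of *Becn1* occur in transcripts of other genes, and *Cntd1* overlaps it there. The values were made with a strand-specific setting. *Atg14*, which directs the lipid kinase to the forming autophagosome, was at 19.7 FPKM in GV and 30.2, 35.1 and 30.7 in TubA-10, TubA-20 and MII, changes of 0.59 to 0.80 log2. *Wipi1* and *Wipi2* encode related proteins that bind the lipid mark, and WIPI2 brings in ATG16L1. *Wipi1* (chr11:109573331-109611967) was at 3.02 FPKM in GV, 4.78 in TubA-10, 8.52 in TubA-20 and 6.25 in MII, and rose in TubA-20 by 1.24 log2. *Wipi2* (chr5:142627698-142670588) had the reverse order, at 9.25, 4.68, 1.79 and 2.77 FPKM. It fell in MII (−1.44 log2) and TubA-20 (−1.88). Its 3′ UTR carries the heptamer printed above.

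The lipid supply genes were low in level and mostly highest in GV. *Atg9a* (chr1:75180860-75192196), the gene of the membrane-spanning scramblase, was at 3.97 FPKM in GV, 1.88 in TubA-10, 0.712 in TubA-20 and 1.65 in MII, and fell by 1.54 log2 in TubA-20. Of the 50-base stretches of its transcript, 43.9% also occur in the overlapping gene model *Gm29253* on the same strand, so its level is uncertain. *Atg2a* (chr19:6241668-6262335), which encodes a lipid transfer protein, was at 8.94, 5.51, 2.40 and 5.01 FPKM in GV, TubA-10, TubA-20 and MII, and fell by 1.55 log2 in TubA-20. Its paralogue *Atg2b* was lowest in GV, at 2.78 FPKM beside 3.55, 4.17 and 4.59. *Atg9b* was below 1 FPKM in all libraries (0.0386 to 0.628).

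The conjugation system that builds the ATG12-ATG5-ATG16L1 complex held the most abundant autophagy message of the GV library. *Atg5*, the acceptor of ATG12, was at 164 FPKM in GV, 237 in TubA-10, 315 in TubA-20 and 230 in MII, and its change in TubA-20 was 0.94 log2, just under 2-fold (1.01 with equal *Gapdh*). *Atg16l1* (chr1:87755870-87792428), which ties the conjugate to the membrane, was at 39.9, 60.0, 92.4 and 59.3 FPKM and rose by 1.19 log2 in TubA-20. TubA-10 and MII lay close together for both genes, between GV and TubA-20. *Atg12*, the ubiquitin-like member, ranged only from 37.4 FPKM in GV to 54.0 in TubA-10, with 45.2 in TubA-20 and 48.2 in MII. Per length, *Atg5* exceeded *Atg12* 4.38-fold in GV, 4.39-fold in TubA-10, 4.78-fold in MII and 6.98-fold in TubA-20. The activating enzyme of both conjugation systems, *Atg7* (chr6:114643097-114860614), was at 7.15 FPKM in GV, 4.26 in TubA-10, 3.80 in TubA-20 and 3.02 in MII, and fell by 1.02 log2 in MII, a value that came to −0.83 with equal *Gapdh*. *Atg10*, the conjugating enzyme for ATG12, was at 7.04, 11.0, 7.91 and 11.2 FPKM in GV, TubA-10, TubA-20 and MII, with TubA-20 nearest GV. *Atg16l2* was below 1 FPKM throughout (0.118 to 0.744).

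Of the enzymes that act on LC3 and GABARAP, *Atg3* rose and *Atg4b* fell in TubA-20, and the others did not pass 2-fold or were below 1 FPKM. *Atg3* (chr16:45158785-45188538), the conjugating enzyme that transfers LC3 to lipid, was at 12.9 FPKM in GV, 18.8 in TubA-10, 27.0 in TubA-20 and 21.2 in MII, and rose in TubA-20 by 1.01 log2. *Atg4b* (chr1:93751500-93790610), the main protease that trims LC3 and GABARAP and frees them from lipid, was at 17.1 FPKM in GV, 11.3 in TubA-10, 2.36 in TubA-20 and 4.85 in MII. It fell in MII (−1.63 log2) and further in TubA-20 (−2.43), while TubA-10, at −0.57, stayed within 2-fold of GV. *Atg4a*, a protease with a preference for the GABARAP group, was at 1.96, 3.01, 3.39 and 3.41 FPKM in GV, TubA-10, TubA-20 and MII. Its values are uncertain, since 63.6% of its 50-base stretches also occur in *Atg4a-ps*. That gene is a pseudogene by name but protein-coding in GENCODE M21, and was listed separately at 0.261 to 0.304 FPKM. *Atg4c* (0.0266 to 0.516 FPKM) and *Atg4d* (0.0588 to 0.751 FPKM) stayed below 1 FPKM.

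LC3 and GABARAP are the proteins that coat the autophagosome. *Map1lc3a* was the most abundant of their genes in GV, at 77.7 FPKM, and was at 70.8 in TubA-10, 42.9 in TubA-20 and 53.2 in MII. *Map1lc3b*, whose protein is the usual marker of autophagosomes, was at 39.1 FPKM in GV and at 52.6, 55.8 and 57.3 in TubA-10, TubA-20 and MII. Neither passed 2-fold on the deposited values, and their order reversed between GV and both TubA-20 and MII. *Gabarap* (chr11:69991143-69994951), which acts at autophagosome closure and fusion, was at 14.4 FPKM in GV, 5.83 in TubA-10, 1.79 in TubA-20 and 4.43 in MII. Its changes of −1.17 log2 in TubA-10, −2.46 in TubA-20 and −1.502 in MII all passed 2-fold, and it was the only autophagy gene that fell in all comparisons with GV. *Gabarapl2*, of the same group, kept to a range from 13.4 FPKM in MII to 17.98 in GV, with 16.7 in TubA-10 and 14.2 in TubA-20. Transcripts of other genes hold 17.0% of the 50-base stretches of *Gabarapl2* and 13.4% of those of *Map1lc3b*. *Gabarapl1* was listed at 0 in GV and at 0.218 to 0.273 FPKM in the others. The summed FPKM of the LC3 and GABARAP genes was 149 in GV, 146 in TubA-10, 115 in TubA-20 and 129 in MII, and the share of *Gabarap* in it was 9.63%, 3.99%, 1.56% and 3.44%.

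Cargo receptors link ubiquitin or organelles to LC3. *Tax1bp1* (chr6:52713729-52766780), a receptor for ubiquitinated cargo, was at 148 FPKM in GV, 334 in TubA-10, 436 in TubA-20 and 426 in MII. It rose by 1.17, 1.56 and 1.52 log2, and along with *Becn1* it was the only autophagy gene past 2-fold upward in every comparison with GV. *Nbr1* (chr11:101552149-101581951), a receptor for protein aggregates and peroxisomes, was at 22.1, 31.4, 47.2 and 37.1 FPKM in GV, TubA-10, TubA-20 and MII, and rose in TubA-20 by 1.06 log2. *Optn*, the mitophagy receptor optineurin, ran the other way, at 33.1 FPKM in GV against 20.3, 18.6 and 21.6, within 2-fold on the deposited values. *Calcoco1*, a receptor for the endoplasmic reticulum and Golgi, was at 11.6 FPKM in GV, 7.60 in TubA-10, 8.26 in TubA-20 and 9.68 in MII.

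MII against GV asks how these messages stood after maturation without drug. *Becn1* and *Tax1bp1* rose, which is 2 of 28 (7.14%) beside 6.14% of the 10898 genes tested. *Atg101*, *Atg4b*, *Gabarap*, *Wipi2* and *Atg7* fell, which is 5 of 28 (17.9%) beside 16.8% of all genes tested. Both shares were near the background. The median change was 0.40 log2 for the 28 genes and 0.04 for all genes tested, with 16 genes above 0 and 12 below. Over all 34 genes, with the 6 low ones included, the median was 0.08. With the libraries set to equal *Gapdh*, *Rb1cc1* and *Wipi1* also passed 2-fold upward and *Atg7* no longer passed it, which made 4 rises and 4 falls. No share over all genes tested is given beside these counts.

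TubA-10 against GV gave fewer changes past 2-fold. The rises were again *Becn1* and *Tax1bp1* (7.14%, beside 1.5% of all genes tested) and the only fall was *Gabarap* (3.57%, beside 11.3%). The median change was 0.23 log2 for the 28 genes and 0.08 for all genes tested. *Becn1* at 1.05 and *Gabarap* at −1.17 came back within 2-fold when the libraries were scaled another way, at 0.90 with a median change of 0 for *Becn1* and −0.93 with equal *Gapdh* for *Gabarap*. The first of these scalings gave 1 rise and 2 falls, since *Atg101* then passed 2-fold, and the second gave 2 rises and 0 falls. Shares over all genes tested are not given for either scaling.

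TubA-20 against GV gave the most changes in both directions. The 6 genes that rose were *Tax1bp1*, *Becn1*, *Wipi1*, *Atg16l1*, *Nbr1* and *Atg3*, 21.4% of the 28 beside 15.3% of all genes tested. The 7 that fell were *Gabarap*, *Atg4b*, *Atg101*, *Wipi2*, *Atg2a*, *Atg9a* and *Atg13*, 25.0% beside 23.6%. The median change, 0.23 log2 for the autophagy genes and 0.07 for all genes tested, hid this split, and the median size of a change without its sign was 0.90 and 0.83. With the median change of all genes set to 0, *Atg16l1*, *Nbr1* and *Atg3* were within 2-fold and *Map1lc3a* and *Optn* passed it downward, which made 3 rises and 9 falls, while each of the 7 falls was past 2-fold in every scaling tried. For a median change of 0, shares over all genes tested are not given. The 3 comparisons with GV share that library, so their likeness carries no independent information.

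Against MII, the library cultured as long without drug, the autophagy genes differed about as much as all genes tested. The median size of a change without its sign was 0.23 log2 in TubA-10 and 0.28 in TubA-20. For all genes tested it was 0.24 and 0.29. In TubA-10, *Atg4b* was higher by 1.07 log2, the 1 gene past 2-fold upward (3.57%, beside 1.04% of all genes tested). None of the 28 was past 2-fold lower, beside 0.257% of all genes tested. *Atg101*, at 0.84, and *Wipi2*, at 0.59, came next and were likewise nearer their GV level in TubA-10 than in MII. In TubA-20, 0 genes passed 2-fold upward, beside 0.661% of all genes tested, and 0 downward, beside 4.92%. *Gabarap* came nearest at −0.96, followed by *Atg2a* (−0.82), *Atg4b* (−0.80), *Atg13* (−0.68) and *Atg9a* (−0.63). On the upper side stood *Atg16l1* (0.63) and *Atg5* (0.45). The medians with sign were −0.02 in TubA-10 and −0.06 in TubA-20, beside 0.01 and −0.001 for all genes tested. With a pseudocount of 0.1 in place of 1, *Gabarap*, *Atg2a*, *Atg4b*, *Atg13* and *Atg9a* were all past 2-fold lower in TubA-20, so for these low genes the call turned on the scale. The share over all genes tested is not given for that pseudocount, so this count has no background.

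**Figure D2:**
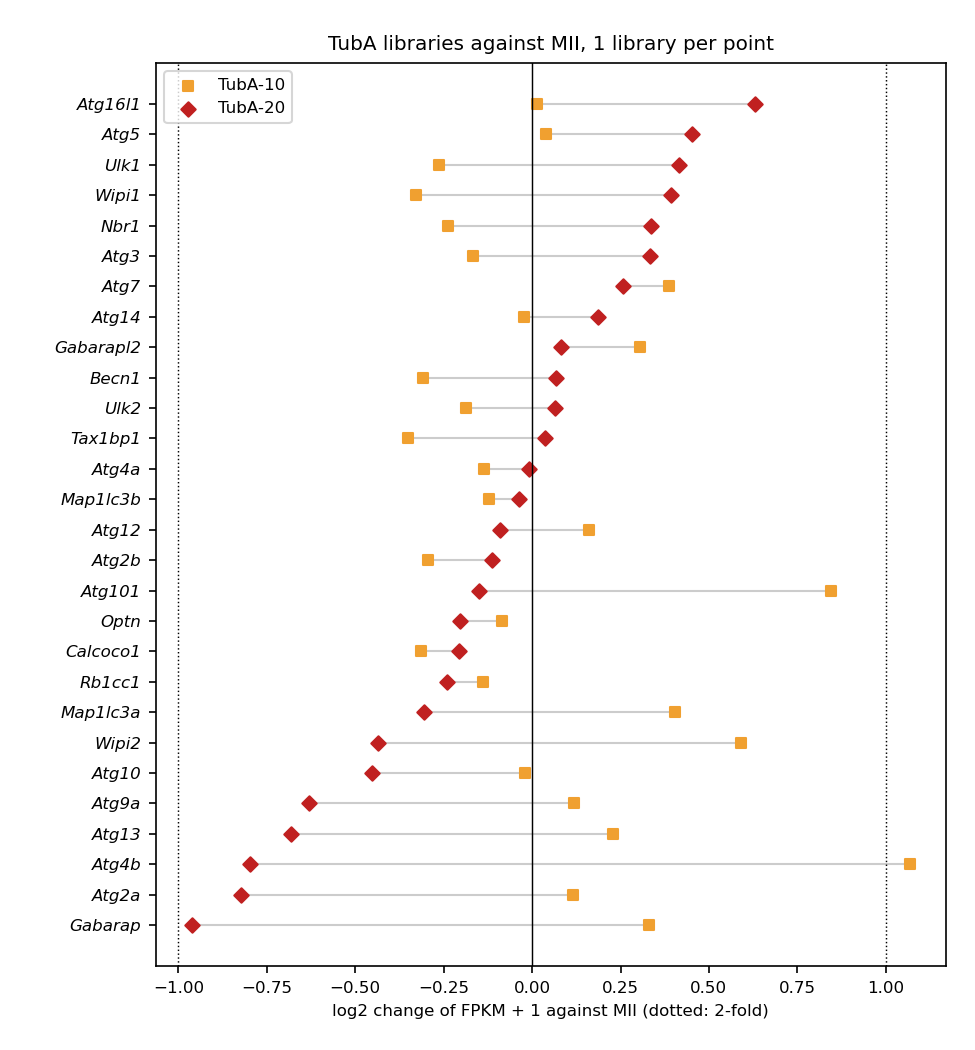
Log2 change of FPKM + 1 against MII for the 28 autophagy genes, 1 library per point (orange square TubA-10, red diamond TubA-20), ordered by the value in TubA-20, with 2-fold as dotted lines. Only *Atg4b* in TubA-10, at 1.07, lies past 2-fold, and its value in TubA-20, at −0.80, lies on the other side of 0.

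Where a gene has a paralogue that also reached 1 FPKM, the balance of the pair differed between libraries. There were 6 such pairs, and shares of the summed FPKM, which is already per length, are given for the paralogue whose share was larger in MII than in GV. *Wipi1* held 24.6% of its pair with *Wipi2* in GV, 50.6% in TubA-10, 69.3% in MII and 82.6% in TubA-20. *Atg4a* held 10.3%, 21.1%, 41.3% and 58.9% of its pair with *Atg4b* in the same order. The leading paralogue was thus another one in TubA-20 than in GV for both pairs. For *Atg4a* this lead rested on 3.39 against 2.36 FPKM. With 63.6% of its 50-base stretches also in *Atg4a-ps*, the share of *Atg4a* is uncertain. *Atg2b* held 23.7% of its pair with *Atg2a* in GV, 39.2% in TubA-10, 47.8% in MII and 63.4% in TubA-20. *Map1lc3b* went from 33.5% through 42.6% and 51.8% to 56.5% of its pair with *Map1lc3a*. *Gabarapl2*, already ahead of *Gabarap* in GV at 55.6%, held 74.2% in TubA-10, 75.1% in MII and 88.8% in TubA-20. In these 5 pairs the libraries stood in the order GV, TubA-10, MII, TubA-20. That MII lay above GV follows from the choice of paralogue. Sizes of change against GV had the same order over all genes tested. Their medians were 0.45 log2 in TubA-10, 0.60 in MII and 0.83 in TubA-20. Pairs of other genes were not examined, so the order cannot be called particular to autophagy genes. *Ulk1* differed least, with 73.6% of its pair with *Ulk2* in GV, 78.0% in TubA-10, 77.9% in MII and 82.1% in TubA-20. A share within 1 library does not depend on how libraries were scaled to each other.

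**Figure D3:**
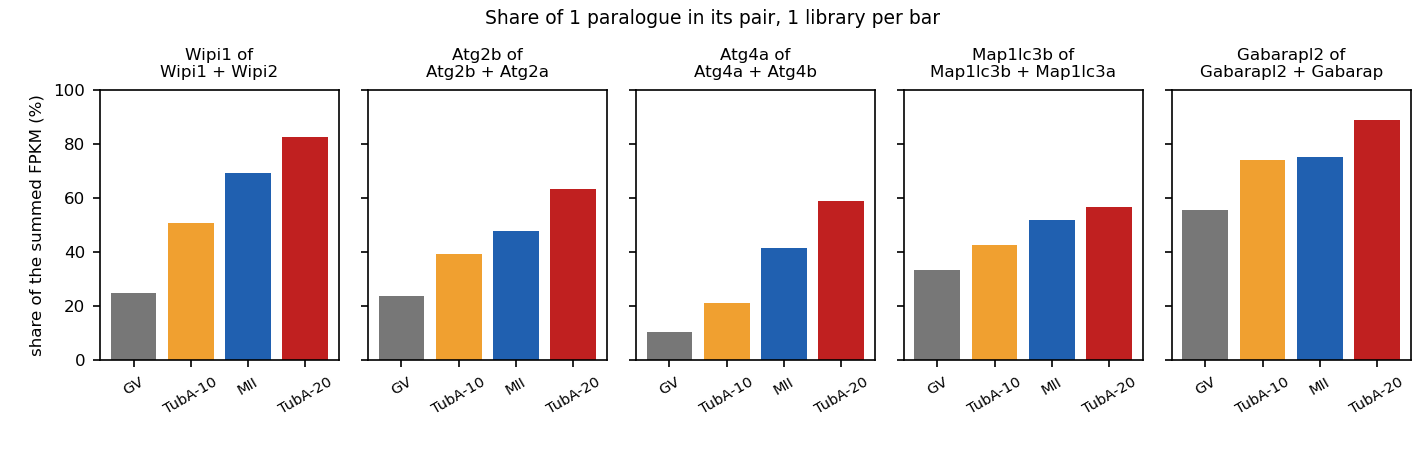
Share of 1 paralogue in the summed FPKM of its pair, in percent, 1 bar per library, for the 5 pairs with the largest shifts. In each panel the bars climb from GV through TubA-10 and MII to TubA-20, as for *Wipi1* from 24.6% to 82.6%. The paralogue shown was chosen as the one with the larger share in MII than in GV, which fixes the climb between these libraries. The values of *Atg4a* are uncertain.

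The rule did not use transcript sequence, and the genes that rose and fell differed in it. Of the 28 genes, 18 (64.3%) had at least 1 TTTTAT or TTTTAAT in the 3′ UTR, beside 59.5% of 10697 tested genes with a 3′ UTR. All 6 genes that rose in TubA-20, whose windows are printed above, were among the 18, and *Becn1* had 5 sites, *Tax1bp1* 4, *Nbr1* 4 (1 in its shortest principal transcript) and the other three 1 each. Of the 10 genes without a site 0 rose and 5 fell (*Gabarap*, *Atg4b*, *Atg101*, *Atg2a*, *Atg9a*), whereas 2 of the 18 with a site fell (*Wipi2*, *Atg13*). The median change in TubA-20 was 0.52 log2 with a site and −1.19 without. All tested genes showed the same ordering, at 0.43 and −0.66, with 20.4% against 7.66% higher and 12.3% against 40.1% lower, so the split is not particular to autophagy genes. In MII the medians were 0.57 and −0.82 for the autophagy genes and 0.30 and −0.44 for all genes tested. Exceptions in TubA-20 were *Atg5* and *Ulk1*, with 0 sites and values above 0, and *Wipi2*, *Atg13*, *Optn* and *Gabarapl2*, with 1 or 2 sites and values below 0. Within the last 100 bases, where the element lies close to the polyadenylation signal, only *Atg16l1*, *Atg2b* and *Map1lc3b* had a site (10.7%, beside 20.2% of all tested genes).

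The same groups differed in other features of the transcript. Transcripts of the 18 autophagy genes with a site had a median 3′ UTR of 1156 bases and a median GC content of 47.3%, against 829 bases and 56.7% in the 10 without. Over all 28 genes the Spearman coefficient between GC content and change came to −0.64 (MII), −0.70 (TubA-10) and −0.53 (TubA-20) against GV, where 10845 tested genes gave −0.35, −0.35 and −0.31. These are descriptions across genes, which share libraries, depth and base composition and are not replicates. GC content ran from 39.1% in *Rb1cc1* and 40.3% in *Atg10* to 60.0% in *Atg2a* and 63.1% in *Map1lc3a*. *Ulk1* and *Atg101* had the same GC content (58.0%) and changes of 0.87 and −1.99 log2 in TubA-20. *Gabarap* and *Atg4b*, with the largest falls there, were in the middle of the range at 50.8%. The parts of sites, UTR length and GC content in the changes were not tested.

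**Figure D4:**
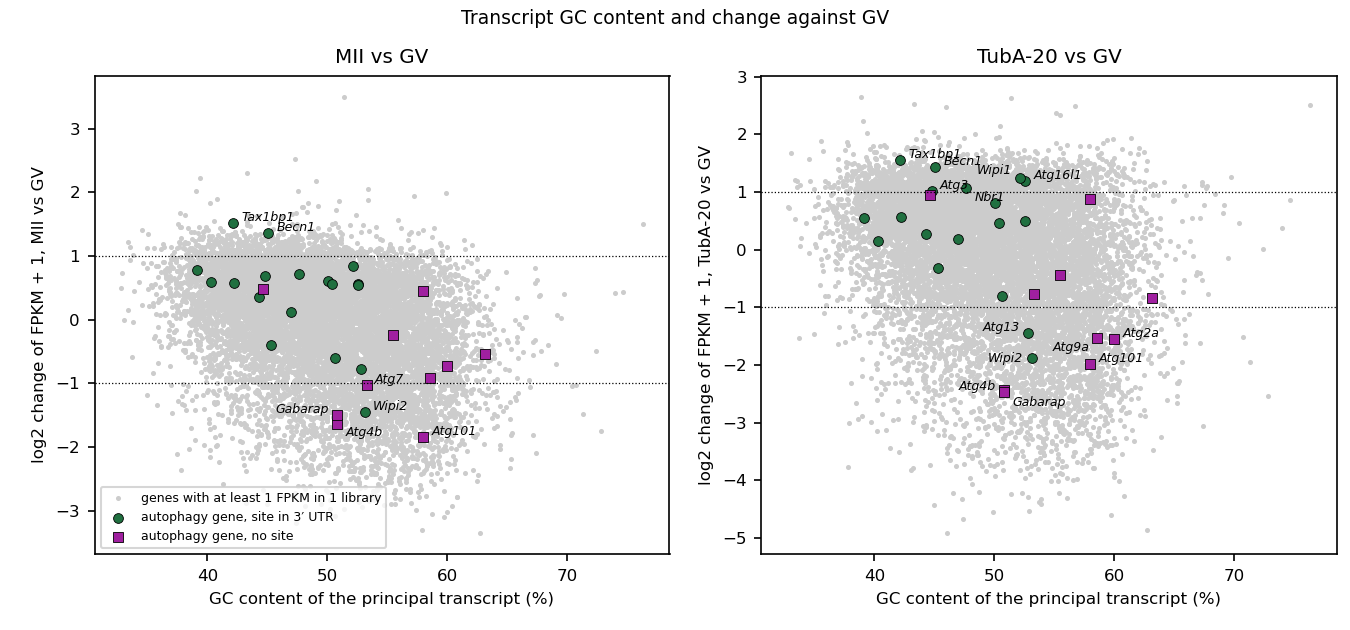
GC content of the principal transcript in percent against the log2 change of FPKM + 1 in MII (left) and TubA-20 (right) against GV, with all genes of at least 1 FPKM in 1 library in grey, autophagy genes with a TTTTAT or TTTTAAT in the 3′ UTR as green circles and those without as purple squares, and 2-fold as dotted lines. The labelled genes are past 2-fold. All labelled rises are circles, and *Wipi2* and *Atg13* are the circles among the labelled falls.

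Other genes of the pathway were taken from lists of 66 genes, of which 61 reached 1 FPKM. Against GV, 2 (3.28%) were past 2-fold higher and 8 (13.1%) lower in MII, beside 6.14% and 16.8% of all genes tested. The TubA-10 library had 2 higher (3.28%, beside 1.5%) and 6 lower (9.84%, beside 11.3%). In TubA-20, 9 were higher (14.8%, beside 15.3%) and 15 lower (24.6%, beside 23.6%). The balance depended on the scaling, since equal *Gapdh* gave 6 higher in MII and 7 higher with 3 lower in TubA-10, and a median change of 0 gave 0, 1 and 5 higher in MII, TubA-10 and TubA-20. These counts under other scalings have no share over all genes tested beside them. Against MII, 0 passed 2-fold in TubA-10 and 1, *Vamp8*, was lower in TubA-20. Against GV, the 9 that were higher in TubA-20 were *Hsp90aa1* (1.51 log2), *Deptor*, *Nrbf2*, *Rheb*, *Prkab1*, *Tollip*, *Stx17*, *Tbk1* and *Ncoa4* (1.08). *Stx17* (1.14) was listed for fusion beside *Vamp8*, and *Prkab1* (1.22) for nutrient signalling beside *Prkaa1*. The genes described next were named for the size of their changes, apart from *Hdac6*, and all were highest in GV. *Sqstm1*, the gene of the receptor p62, was at 33.8 FPKM in GV, 11.5 in TubA-10, 6.45 in TubA-20 and 9.03 in MII. Its changes against GV were −1.48 log2 in TubA-10, −2.23 in TubA-20 and −1.79 in MII, opposite in sign to those of *Tax1bp1*. *Tex264*, a receptor for the endoplasmic reticulum, was at 119, 70.8, 27.0 and 42.3 FPKM in the same order of libraries, and *Vamp8*, a SNARE of autophagosome fusion, was at 171, 34.7, 14.6 and 30.4 FPKM. The changes of *Vamp8* against GV were −2.27, −3.46 and −2.45 log2, and against MII the value was −1.01 in TubA-20. *Prkaa1*, the catalytic subunit of the energy sensor AMPK that activates ULK1, was at 14.9 FPKM in GV and at 5.28, 3.03 and 4.37. *Hdac6* itself, whose protein binds ubiquitin and takes part in the clearance of aggregates, was at 4.44 FPKM in GV, 2.998 in TubA-10, 1.86 in TubA-20 and 3.74 in MII, and its change against GV in TubA-20 was −0.93 log2. That value was past 2-fold in other settings, at −1.07 for a median change of 0 and −1.21 for a pseudocount of 0.1.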

How the data were processed

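RNA from oocytes in 4 conditions was measured in 4 libraries, with 1 library per condition. The labels and the methods of the study differ on the RNA extraction kit, and the series title speaks of single cells where the methods describe pools. The deposited table holds FPKM values, made by the authors and hence scaled to transcript length and library size. Per the submitters' processing notes and methods, mm10 was the genome, with STAR 2.5.0, Cufflinks (strand-specific) and Cuffdiff 2.2.1 named. Of 21959 entries, 21794 matched a symbol by Ensembl identifier and 165 were kept under their identifier. Entries that share a symbol were summed, which gave 21957 genes. Library columns were mapped by the sample descriptions.

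From these values, log2 ratios of FPKM + 1 were computed for 5 comparisons, and genes with at least 1 FPKM in 1 library (10898) were counted as higher or lower past 2-fold. Every gene of the rule could be named, in full at 1 FPKM or more and by its range below. Other pathway genes were to be named if past 2-fold against MII in either TubA library. The 3 largest changes in MII or TubA-20 against GV, at 5 FPKM or more in either library, were to be named too. These rules gave *Sqstm1*, *Tex264*, *Vamp8* and *Prkaa1*, and *Hdac6* was named in any case. *Inha*, *Cyp19a1*, *Cd68* and the pathway genes that were higher in TubA-20 were added after their values were seen. Members and lists were chosen with earlier results of these data known. Positions, transcripts, GC content and 3′ UTRs came from GENCODE M21 (GRCm38), with the longest principal transcript of each gene. Both motifs were searched on the sense strand only. Relative depth was taken from ratios of FPKM between 0.001 and 0.15. Scripts were tested on simulated data. Alternatives were a pseudocount of 0.1, a minimum of 5 FPKM or none, and 3 scalings (median change of 0, equal FPKM sums, equal *Gapdh*). The work was done in Python (3.11.15), with pandas (2.3.3) for tables, numpy (2.4.6) and scipy (1.17.1) for arithmetic, and plots from matplotlib (3.10.9).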

Additional observations from a re-analysis of the deposited data

Results flagged for a closer look

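The libraries of both doses stood on opposite sides of MII for *Atg4b*, the protease that processes LC3 and GABARAP. TubA-10 was at 1.07 log2 (11.3 FPKM against 4.85 in MII) and TubA-20 at −0.80 log2 (2.36 FPKM). The difference was not tested, since each dose had 1 library, and both values share the MII library.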

How the results depend on the processing

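Of 1020 values of the autophagy genes listed under another setting, 980 stayed on their side of 2-fold, 33 passed it and 7 lost it. None reversed a call past 2-fold, while 24 values of at most 0.15 in size changed sign. The 980 include all values under a minimum of 5 FPKM or none. Those settings alter which genes are counted and not the value of a gene, so these values could not move. The calls that lost 2-fold were *Atg7* in MII, *Becn1* and *Gabarap* in TubA-10, and *Atg16l1*, *Atg3* and *Nbr1* in TubA-20, each against GV. With a pseudocount of 0.1 FPKM, which shrinks low genes less by construction, 3 genes were lower in TubA-10 against GV and 5 in TubA-20 against MII. Without a minimum, which adds the 6 low genes, the median change in MII against GV was 0.0804. With the median change of all genes set to 0, 1 gene was higher and 2 were lower in TubA-10 against GV, and 3 were higher in TubA-20 against GV. With equal FPKM sums, 1 gene was lower in TubA-20 against MII. With equal *Gapdh*, 4 genes were higher in MII against GV, 0 were lower in TubA-10 against GV and 1, *Gabarap*, was lower in TubA-20 against MII. These scalings multiply every FPKM value of a library by the same factor, and with the pseudocount of 1 low genes shift less than high ones. Counts under these other settings have no share over all genes tested beside them. The median change of the other pathway genes turned sign from 0.03 to −0.0797 in MII and from 0.09 to −0.0579 in TubA-10 with the median change set to 0, and from −0.09 to 0.0675 in TubA-20 with a minimum of 5 FPKM, each against GV. A share computed from FPKM + 1 and the shortest principal transcript were tried after seeing the data, and left the order of the libraries in the paralogue pairs other than *Ulk1* and the 18 genes with a site as they were. No autophagy gene had several entries under its symbol. No paired analysis was possible because each group had 1 library. At a given transcript length, low values rest on fewer fragments than high ones, most of all in GV and TubA-20, the shallower libraries. How many fragments a value rests on is not known, since the table holds no counts.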
